A study of Mus musculus with 40 samples.

Results

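The genes described here encode the scaffold of the excitatory postsynapse: the SAPAP genes *Dlgap1*, *Dlgap2*, *Dlgap3* and *Dlgap4*, the SHANK genes *Shank1*, *Shank2* and *Shank3*, the linker gene *Homer1*, and *Dlg4*, which encodes PSD-95. They were chosen by symbol, and each of the 9 matched 1 of the 24060 rows of the count table. The study asked how astrocytes and neurons of the mouse striatum differ, and what changes in mice without SAPAP3, the product of *Dlgap3*. RNA was sequenced from 40 libraries in 10 groups of 4. In RiboTag experiments a virus carries a haemagglutinin-tagged ribosomal protein under a promoter meant for 1 cell type. RNA pulled down with the tag (IP) is compared with the RNA of the whole lysate (input).

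The groups were as follows. The Control cohort (strain C57/BL6NTac) gave an input and an IP group, and the hSyn1 cohort (also C57/BL6NTac) gave another pair from mice that carried the tag under the neuronal hSyn1 promoter. The labels of the Control cohort give no promoter. The study's methods name the astrocyte promoter gfaABC1D and hSyn1 for mice of this strain, without assigning either to these animals. The Control IP was read as astrocytic from that and from its markers, given below. The SAPAP3 cohort gave input and IP groups from wild-type mice (WT, C57/BL6J) and from SAPAP3 knockout mice (KO, C57/BL6J-Dlgap3 KO), with no promoter named for its IP. Bulk striatum, without any pull-down, came from WT and KO mice whose strain label is C57/BL6NTac for both genotypes. The tagged ribosomes came from virus injected into the dorsal striatum, so the IP samples only the cells the virus reached. Ages are not in the labels. The study's methods give a later age at injection for the KO mice than for the Control and hSyn1 cohorts, and name none for the WT mice of the SAPAP3 cohort.

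Scaffold proteins hold glutamate receptors in place beneath the postsynaptic membrane of dendritic spines. PSD-95 binds receptors and their auxiliary proteins at the membrane. SAPAP proteins bind the guanylate kinase domain of PSD-95 with their middle part and the PDZ domain of SHANK proteins with their C terminus. SHANK proteins in turn bind Homer, which reaches metabotropic glutamate receptors and the deeper cytoskeleton. *Dlgap3* is the SAPAP gene known for high expression in the striatum, and mice that lack it groom compulsively.

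The SAPAP genes are related in sequence, and the part of the protein that binds SHANK lies at the end of the coding sequence. The last 60 coding bases before the stop codon of 1 RefSeq protein of each gene were read from the mouse genome (GRCm38.p6, + strand). They are shown because they hold the shared SHANK-binding end and the few bases by which the 4 genes differ there. Capitals mark the 46 of 60 bases that are the same in all 4 genes, at chr17:70818172-70818231 for *Dlgap1*, chr8:14846646-14846705 for *Dlgap2*, chr4:127236306-127236365 for *Dlgap3* and chr2:156762841-156762900 for *Dlgap4*.
Dlgap1: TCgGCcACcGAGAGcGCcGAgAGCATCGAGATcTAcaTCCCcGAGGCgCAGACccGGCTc
Dlgap2: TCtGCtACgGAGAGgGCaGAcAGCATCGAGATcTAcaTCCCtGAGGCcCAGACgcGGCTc
Dlgap3: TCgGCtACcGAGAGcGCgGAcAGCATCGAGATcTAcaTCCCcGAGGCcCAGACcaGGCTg
Dlgap4: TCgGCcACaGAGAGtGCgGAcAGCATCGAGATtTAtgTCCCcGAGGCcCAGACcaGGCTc

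Over whole coding sequences the genes were less alike. Pairs of SAPAP genes were 62.6% to 66.5% identical over their aligned coding bases, and pairs of SHANK genes 62.2% to 64.2%. The longest run of identical bases in any pair was 26, in *Dlgap1* with *Dlgap3* and in *Shank1* with *Shank3*. No transcript of the 9 genes had a copy in another gene at 95% identity over 50% of its length. All 9 genes lie on the + strand. *Dlgap3* spans chr4:127168305-127237022, *Dlgap1* chr17:69969073-70821413, *Dlgap2* chr8:14095776-14853426 and *Dlgap4* chr2:156613633-156764363. *Shank1* and *Shank2* are both on chromosome 7, at chr7:44308916-44360094 and chr7:143978077-144426043, and *Shank3* is at chr15:89493013-89560261. *Homer1* is at chr13:93303757-93405129 and *Dlg4* at chr11:70017203-70045535. At most 1.891% of a gene's exon length overlapped an exon of a gene on the other strand, in *Shank3*.

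Libraries held 23438112 to 84109800 counted reads, with a median of 46523012. The IP of the Control cohort was rich in astrocyte transcripts: 10 astrocyte markers summed to 29060 to 31350 CPM (counts scaled to the library total) in the IP and 3134 to 3377 CPM in the input, and 10 microglial markers summed to 53.1 to 60.01 CPM against 953 to 1178 CPM. In the hSyn1 cohort 10 neuronal markers summed to 8660 to 8997 CPM in the IP and 6125 to 6489 CPM in the input. In the SAPAP3 cohort the astrocyte markers reached 21460 to 29460 CPM in the WT IP and 25690 to 32960 CPM in the KO IP, against 5723 to 6987 and 6331 to 7670 CPM in the inputs. The neuronal markers did not vanish from the Control IP, at 4420 to 4760 CPM against 7046 to 7335 CPM in its input. The groups also differed in a set of 6 cortical glutamatergic neuron markers, described below with the genes they moved with. The Control and hSyn1 cohorts share a strain, and the SAPAP3 cohort has another. Its KO mice were injected at a later age, and no age is named for its WT mice. Its differences in level from the other cohorts therefore cannot be told apart from strain or age.

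*Dlgap3* was among the most abundant scaffold transcripts in every wild-type group. In the Control input its level was 634, 687, 659 and 640 CPM, and in the Control IP 247, 229, 239 and 232 CPM. In the hSyn1 cohort the input held 394, 392, 383 and 332 CPM and the IP 383, 407, 439 and 389 CPM. All 4 Control IP libraries lay below all 4 Control inputs, whereas the hSyn1 IP and input overlapped. In the SAPAP3 cohort the WT input held 514, 395, 376 and 400 CPM and the WT IP 212, 154, 157 and 179 CPM. WT bulk striatum held 376, 386, 338 and 232 CPM.

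*Dlgap1* encodes the SAPAP protein first described as a PSD-95 partner, and its levels ran differently. The Control input held 150, 143, 155 and 149 CPM, and the Control IP 200, 230, 209 and 213 CPM. The IP was thus above the input in all 4 pairs with no overlap between the groups. In the hSyn1 cohort *Dlgap1* was at 381, 333, 443 and 381 CPM in the input and 391, 297, 441 and 361 CPM in the IP, which overlapped. The WT input of the SAPAP3 cohort held 176, 381, 361 and 369 CPM, so that its replicate 1 stood far below the other 3. The WT IP held 181, 226, 228 and 212 CPM. *Dlgap2* and *Dlgap4* varied less, with *Dlgap2* at 81.2 to 113 CPM and *Dlgap4* at 137 to 201 CPM over the 24 input and bulk libraries.

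Among SHANK genes, *Shank3*, whose loss causes a neurodevelopmental disorder in people, was the most abundant. Its level was 350 to 380 CPM in the Control input, 141 to 153 CPM in the Control IP, 206 to 229 CPM in the hSyn1 input and 134 to 162 CPM in the hSyn1 IP. *Shank1* was lowest in the Control cohort, at 29.4, 33.4, 29.1 and 32.0 CPM in the input and 27.9, 43.7, 31.5 and 38.4 CPM in the IP, which overlapped. In the hSyn1 cohort it was at 115, 90.1, 154 and 99.4 CPM in the input and 77.5, 51.2, 112 and 72.0 CPM in the IP. These groups overlapped too, and every hSyn1 library was above every Control library. *Shank2* ranged from 55.8 to 125 CPM over the 24 input and bulk libraries. *Homer1*, which includes both the long linker forms and an activity-induced short form under 1 symbol, was at 330 to 394 CPM in the Control input and 140 to 156 CPM in the Control IP. *Dlg4* was at 592 to 623 CPM in the Control input and 229 to 240 CPM in the Control IP.

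**Figure D1:**
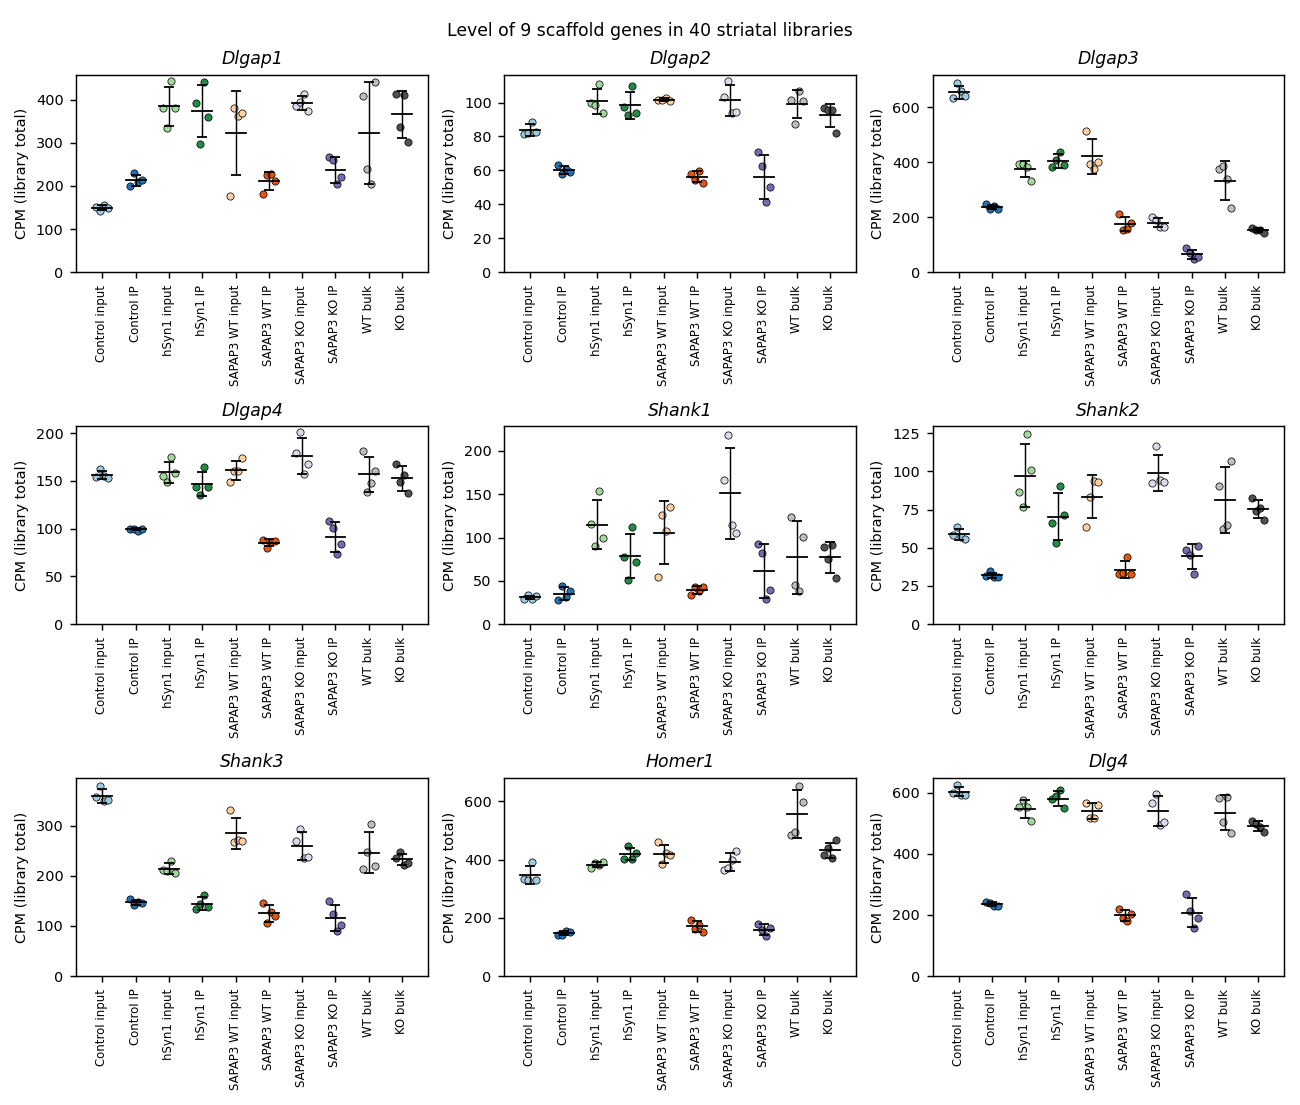
Level of each of the 9 genes in every library, in CPM, for the 10 groups of 4 libraries. *Dlgap3* sits at 634 to 687 CPM in the Control input and at 49.8 to 87.2 CPM in the KO IP, its highest and lowest groups.

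Levels of different genes were compared per length, as FPKM (counts scaled to exon length and library total), with merged exons of all annotated transcripts as the length. *Dlg4* had the highest mean FPKM of the 9 genes in all 10 groups. In the Control input it was at 153 ± 3.72 FPKM (SD, n = 4), followed by *Dlgap3* at 105 ± 3.80, *Homer1* at 44.9 ± 4.03, *Shank3* at 25.1 ± 0.975 and *Dlgap1* at 15.3 ± 0.538 FPKM. Libraries of neighbours in this order did not overlap, except *Dlgap2* and *Shank2* near the bottom, at 2.79 ± 0.116 and 2.53 ± 0.149 FPKM. In the Control IP the order was *Dlg4* at 59.4 ± 1.56, *Dlgap3* at 37.9 ± 1.29 and *Dlgap1* at 21.7 ± 1.26 FPKM, so that *Dlgap1* passed *Homer1*, at 19.0 ± 0.977 FPKM, and *Shank3*, at 10.2 ± 0.371 FPKM. In the hSyn1 IP the order was *Dlg4* at 147 ± 6.24, *Dlgap3* at 64.9 ± 4.02, *Homer1* at 54.2 ± 2.70 and *Dlgap1* at 38.0 ± 6.14 FPKM. *Dlgap3* was second in every wild-type group but WT bulk, where *Homer1* was at 72.1 ± 10.6 FPKM and *Dlgap3* at 53.4 ± 11.2 FPKM. Merged exons were long for *Dlgap2*, 29982 bases against 4510 in curated transcripts alone, and for *Dlgap4*, 28556 against 5886. With curated exons the Control input level of *Dlgap4* was 26.6 ± 0.766 FPKM instead of 5.47 ± 0.158 FPKM, which placed it above *Dlgap1*. *Dlg4* stayed first in all 10 groups, and in WT bulk *Dlgap3* was then second at 76.2 ± 16.1 FPKM with libraries that overlapped those of *Homer1*.

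The make-up of the SAPAP family differed between groups. *Dlgap3* took a mean of 81.7% of the summed SAPAP FPKM in the Control input and 58.2% in the Control IP, while *Dlgap1* took 11.9% and 33.4%. In the hSyn1 cohort the share of *Dlgap3* was 55.5% in the input and 58.4% in the IP. In the SAPAP3 cohort it was 61.7% in the WT input and 51.3% in the WT IP, and 36.8% and 26.1% in the KO input and IP. With curated exons the share of *Dlgap3* was lower throughout, at 71.0% in the Control input and 50.4% in the Control IP. Within the SHANK family *Shank3* had the largest share in all 10 groups under both exon sets, from 54.5% in the hSyn1 IP to 84.1% in the Control input with merged exons.

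**Figure D2:**
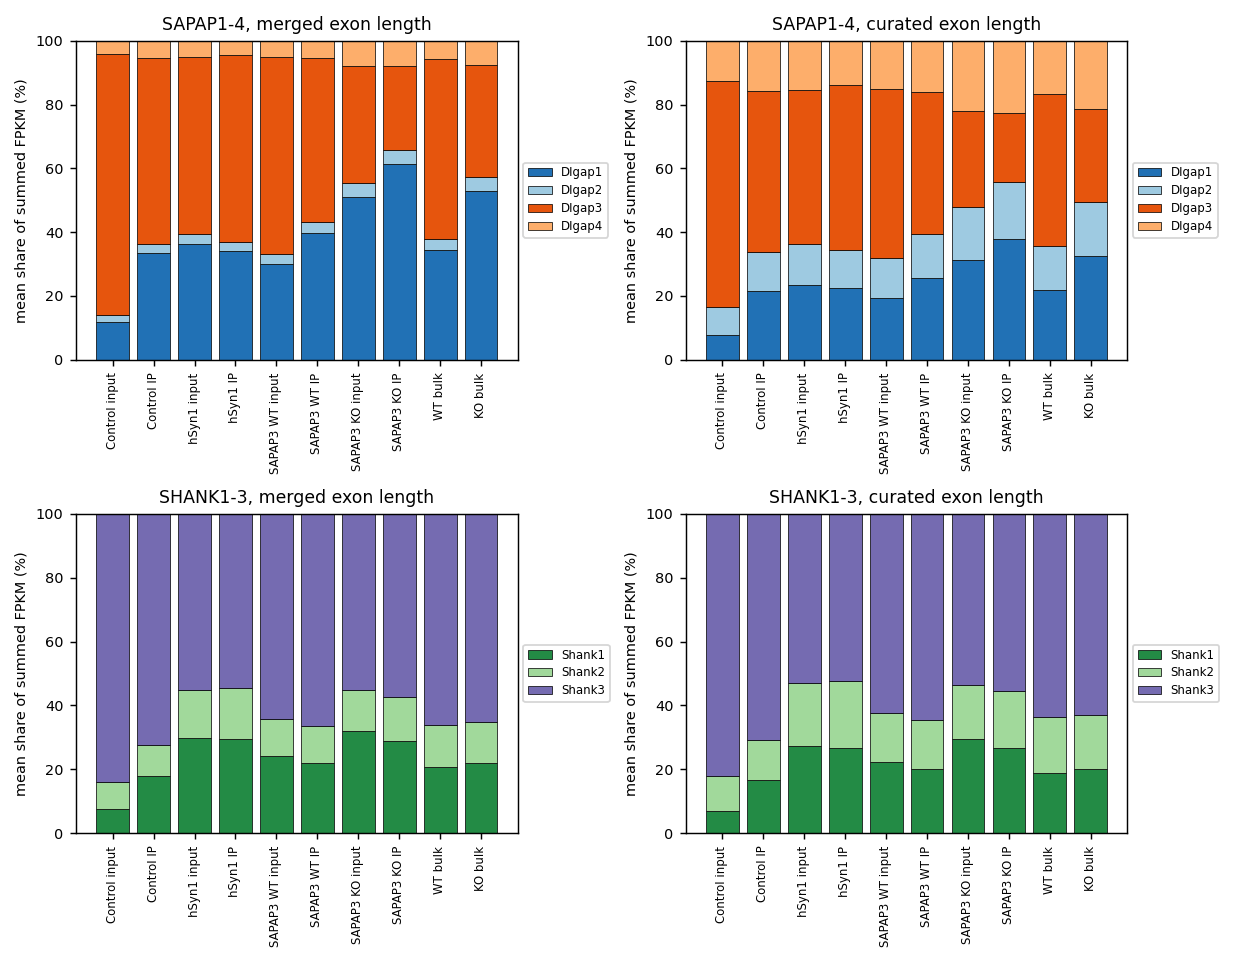
Mean share of each gene in the summed FPKM of its family, in percent, for SAPAP genes and SHANK genes in the 10 groups. With merged exons *Dlgap3* falls from 81.7% of SAPAP FPKM in the Control input to 26.1% in the KO IP. *Shank3* is the largest part of the SHANK bars throughout.

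Input and bulk libraries were not alike in the level of cortical neuron markers. In bulk tissue, fewer cells of a type and less RNA per cell cannot be told apart. *Slc17a7*, a transporter gene of cortical glutamatergic neurons, was at 58.6 to 87.6 CPM in the Control inputs and at 59.3 CPM in WT input replicate 1, but at 427 to 560 CPM in the other 3 WT inputs. In WT bulk it was at 780, 191, 158 and 618 CPM. Ranked by 6 cortical markers, after the values had been seen, 7 of the 24 input and bulk libraries were low: the 4 Control inputs, WT input replicate 1 and WT bulk replicates 2 and 3.

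Several scaffold genes differed between these 2 sets of libraries. The share of all genes that did not overlap in this split was not counted. The Control inputs are among the 7 libraries, so split and cohort coincide in part. *Dlgap1* was at 142 to 238.2 CPM in the 7 libraries and at 303 to 443 CPM in the other 17, with no overlap. *Shank2* did not overlap either, at 55.8 to 65.3 against 68.2 to 125 CPM. *Shank1* was at 29.1 to 53.9 against 53.2 to 219 CPM and overlapped only at the edge. *Shank3* leaned the other way, at 248 to 380 against 206 to 293 CPM. So did *Dlgap3* in the 16 libraries without the knockout, at 338 to 687 CPM in the 7 and 232 to 400 CPM in the other 9, both with overlap. Striatal neuron genes were higher in the 7 libraries, with *Ppp1r1b*, which encodes DARPP-32, at 1076 to 1664 against 589 to 896 CPM and the dopamine receptor gene *Drd1a* at 482 to 583 against 226 to 386 CPM. *Dlgap2*, *Dlgap4*, *Homer1* and *Dlg4* overlapped between the 2 sets of libraries. The part of tissue make-up in the scaffold levels was not tested beyond the fits that include the cortical markers, given with the genotype comparisons.

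**Figure D3:**
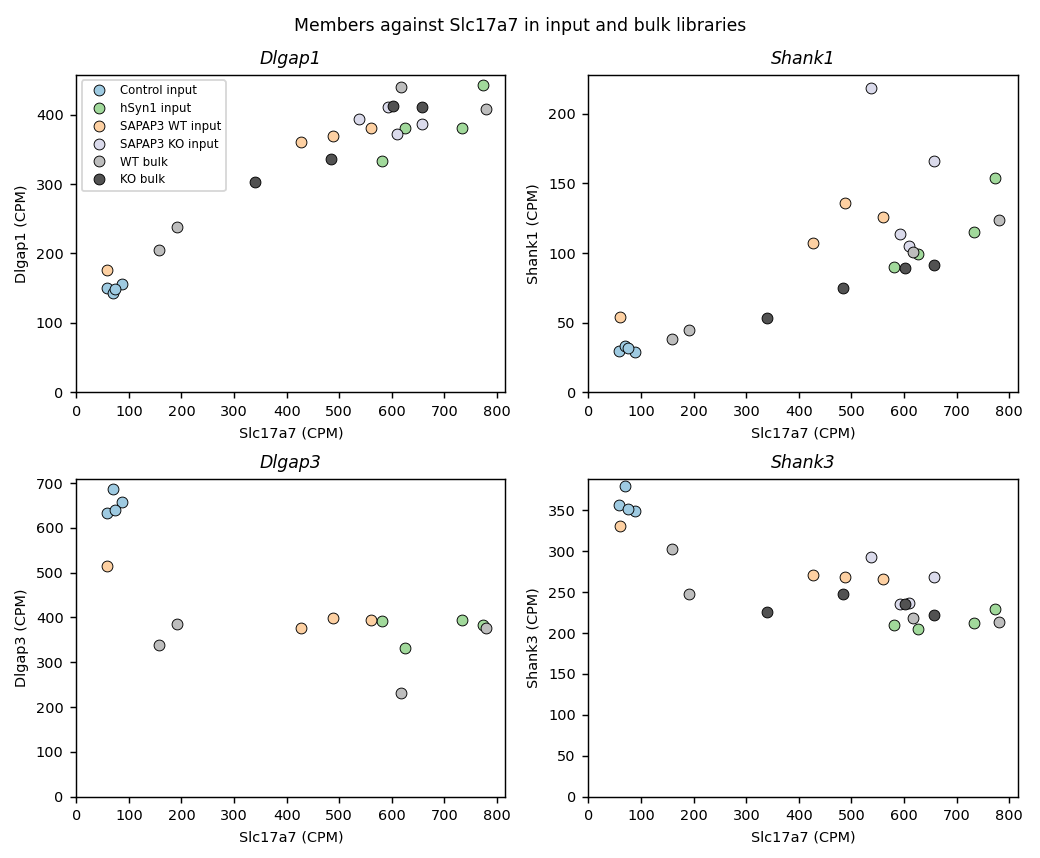
Level of scaffold genes in CPM against the level of the cortical marker *Slc17a7* in CPM, 1 point per input or bulk library. *Dlgap1* and *Shank1* are lowest where *Slc17a7* is lowest, in the Control inputs, WT input replicate 1 and WT bulk replicates 2 and 3.

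The Control cohort asked which transcripts were bound to ribosomes of tagged cells more than in the lysate. Here and in the other cohorts the main fits did not pair an IP with the input of its animal. *Dlg4*, *Dlgap3*, *Shank3* and *Homer1* were lower in the IP, while *Dlgap1* and *Shank1* were higher and the remaining 3 genes were modestly lower. The log2 fold change of IP over input was -1.25 for *Dlgap3* (SE 0.040, adjusted p = 1.56e-10), -1.14 for *Dlg4*, -1.07 for *Shank3* and -1.02 for *Homer1*. These 4 passed the call rule of an adjusted p under 0.05 and a log2 fold change beyond 1, which 13.5% of the genes tested passed downwards and 13.4% upwards. Without 1 of 3 libraries (input replicate 3, IP replicates 1 or 2) *Homer1* came to between -0.99 and -0.94 and fell short of that limit. *Shank2* was at -0.66, *Dlgap4* at -0.43 and *Dlgap2* at -0.25, all with adjusted p under 0.05. *Dlgap1* rose by 0.73 on the log2 scale (SE 0.047, adjusted p = 4.96e-08).

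*Shank1* was at 0.41 (SE 0.12, adjusted p = 0.0080), and at 0.19 (adjusted p = 0.17) when libraries were scaled by their totals, a scaling that moved the median of all genes by -0.22. Without the fold limit 7 of the 9 genes were lower and 2 higher, beside 41.2% and 39.2% of all genes tested. In CPM, 7 of 9 genes had all IP libraries below all inputs and 1 had them above, where 51.4% and 25.7% of genes did so. The 6 cortical markers moved with *Dlgap1* and *Shank1* in this comparison: 4 of 6 were higher in the IP at an adjusted p under 0.05, with a median log2 fold change of 0.90, and their sum was 79.4 to 117 CPM in the input and 66.7 to 258 CPM in the IP. Their part in the result was not tested.

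With the neuronal hSyn1 promoter the scaffold genes differed little between IP and input. None of the 9 passed the rule with the fold limit, beside 0.420% of genes upwards and 15.8% downwards. Without the limit, *Homer1* rose by 0.34 (SE 0.040, adjusted p = 3.6e-05), *Dlgap3* by 0.31 (SE 0.072, adjusted p = 0.0027) and *Dlg4* by 0.29 (SE 0.058, adjusted p = 0.0012), and *Shank3* fell by 0.36 (SE 0.069, adjusted p = 8.47e-04). These 3 higher and 1 lower stood beside 35.5% and 35.9% of all genes. *Dlgap1* was at 0.16, *Dlgap2* at 0.17, *Dlgap4* at 0.09, *Shank2* at -0.26 and *Shank1* at -0.34, none past the test. In CPM, 1 gene had all IP libraries above all inputs and 1 had them below, where 16.7% and 45.8% of genes did so. With IP and input of the same title number as a pair, 6 were higher and 3 lower, although the labels give the IP and input of this cohort different animal identifiers. Scaled by library totals, which moved the median of all genes by -0.21, *Dlgap3* was at 0.11 and *Dlg4* at 0.08 with adjusted p of 0.15 for both, and only *Homer1* remained higher at 0.13 (adjusted p = 0.017). *Homer1* and *Dlg4* were higher in 4 of 4 such pairs by library totals. *Dlgap2*, *Dlgap4*, *Shank1*, *Shank2* and *Shank3* were lower in 4 of 4, by a mean log2 ratio of -0.034 for *Dlgap2* to -0.577 for *Shank1*.

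The test of the difference between the cohorts set the IP over input of hSyn1 against that of Control. The difference was 1.56 for *Dlgap3* (SE 0.086, adjusted p = 4.38e-11), 1.43 for *Dlg4*, 1.35 for *Homer1*, 0.71 for *Shank3*, 0.52 for *Dlgap4* and 0.42 for *Dlgap2*, all on the log2 scale and all higher with the neuronal promoter. It was -0.57 for *Dlgap1* (adjusted p = 0.0020) and -0.76 for *Shank1* (adjusted p = 0.032). The call on *Shank1* was lost in 7 of 16 fits that left out 1 library, where its adjusted p reached 0.079. *Shank2* was at 0.40 with an adjusted p of 0.098, and passed with pairing by number (adjusted p = 5.38e-07). In all, 6 of 9 were higher and 2 lower, beside 35.8% and 34.3% of the 16371 genes tested. The 2 cohorts differ in input as well as in promoter, and all Control mice expressed Y-linked genes while all hSyn1 mice expressed *Xist*, so sex, input and promoter cannot be told apart in this difference.

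**Figure D4:**
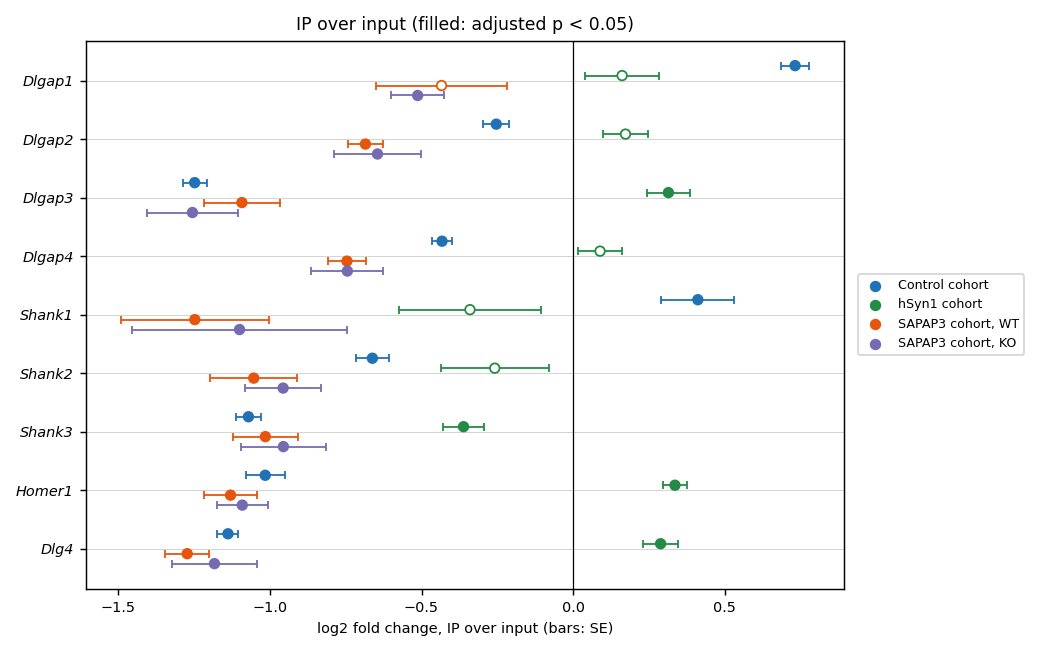
Log2 fold change of IP over input for the 9 genes in the Control cohort, the hSyn1 cohort and the WT and KO mice of the SAPAP3 cohort, with bars of 1 SE and filled points for an adjusted p under 0.05. *Dlgap1* is at 0.73 in the Control cohort and at -0.43 and -0.51 in the WT and KO mice, and *Dlgap3* is at -1.25, 0.31, -1.09 and -1.26.

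In the WT mice of the SAPAP3 cohort all 9 genes were lower in the IP than in the input on average, and 8 passed the test. The log2 fold change was -1.27 for *Dlg4*, -1.25 for *Shank1* (SE 0.24, adjusted p = 0.0014), -1.13 for *Homer1*, -1.09 for *Dlgap3* (SE 0.13, adjusted p = 4.76e-05), -1.05 for *Shank2* and -1.02 for *Shank3*. These 6 passed the limit of 1, which 12.1% of all genes passed downwards and 10.9% upwards. Without WT input replicate 1, *Dlgap3* came to -0.98 and *Shank3* to -0.93, inside the limit. *Shank3* came to -0.95 without WT IP replicate 2, and *Shank2* to -0.98 and -0.99 without WT input replicates 3 and 4. *Dlgap4* was at -0.75 and *Dlgap2* at -0.69. The 8 genes lower without the limit stood beside 34.6% of all genes lower and 32.7% higher, and 8 genes had all IP libraries below all inputs in CPM, where 41.0% of genes did so and 21.7% lay above. *Dlgap1* was at -0.43 (SE 0.22, adjusted p = 0.10), with WT input replicate 1 close to its own IP, at 176 and 181 CPM. Without that mouse it was at -0.53 (adjusted p = 8.49e-05), and with pairs by number at -0.38 (adjusted p = 0.024).

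The KO mice gave a like picture. *Dlgap3* was at -1.26, *Dlg4* at -1.18, *Shank1* at -1.10 (adjusted p = 0.016) and *Homer1* at -1.09, which were the 4 past the limit beside 11.5% of all genes downwards and 12.3% upwards. *Shank2* and *Shank3* were both at -0.96, *Dlgap4* at -0.74, *Dlgap2* at -0.65 and *Dlgap1* at -0.51 (adjusted p = 3.1e-04). All 9 were lower without the limit, beside 35.9% of all genes lower and 36.1% higher, and all 9 had IP libraries below all inputs in CPM, where 45.4% of genes did so and 23.2% lay above. *Shank1* was at 166, 219, 114 and 105 CPM in the KO input and 93.1, 82.4, 28.9 and 39.9 CPM in the KO IP, and without KO input replicate 2 it came to -0.87 with an adjusted p of 0.055. It also fell inside the limit without KO IP replicate 3, at -0.86, and without KO IP replicate 4, at -0.93. No gene's IP over input differed between KO and WT mice at an adjusted p under 0.05 among 16059 tested, of which 203 had an unadjusted p under 0.05 and 1 passed with DESeq2. For *Dlgap3* the difference was -0.20 (SE 0.20).

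*Dlgap1* and *Shank1* thus stood above input in the Control IP and below it in the SAPAP3 cohort, and this difference was tested after the values had been seen. WT minus Control was -1.15 for *Dlgap1* (SE 0.24, adjusted p = 0.0042) and -1.64 for *Shank1* (SE 0.30, adjusted p = 0.0018). It was -0.41 for *Dlgap2* and -0.29 for *Dlgap4*, which also passed, and these 4 lower with 0 higher stood beside 11.3% and 9.18% of all genes. *Dlgap3* was at 0.18 (adjusted p = 0.39), *Shank3* at 0.08, *Homer1* at -0.10 and *Dlg4* at -0.11. *Shank2* was at -0.37 with an adjusted p of 0.12, and passed with pairing by number (adjusted p = 0.0146). The cortical markers moved the same way, with 4 of 6 lower and a median of -2.71, and their part was not tested. The cohorts also differ in strain and input, and WT replicate 4 expressed *Xist*, unlike the Control mice. No promoter is named for the SAPAP3 IP and no age for its WT mice. Strain, sex, age, input and promoter cannot be told apart in this difference. Oligodendrocyte markers summed to 7299 to 10660 CPM in the WT IP against 5904 to 6869 CPM in its input, and to 3268 to 5582 CPM in the Control IP against 5749 to 6677 CPM.

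The knockout comparison was checked first on its target. In the SAPAP3 cohort an age at injection is named for the KO mice and none for the WT mice. Whether the genotypes were matched for age is therefore not known. In the input *Dlgap3* was at 514, 395, 376 and 400 CPM in WT and 200, 189, 166 and 166 CPM in KO mice. In the IP it was at 212, 154, 157 and 179 CPM in WT and 87.2, 68.3, 49.8 and 56.7 CPM in KO, and in bulk at 376, 386, 338 and 232 CPM in WT and 161, 153, 154 and 144 CPM in KO. The genotypes did not overlap in any of the 3 preparations, and the mean of the KO libraries was 42.8%, 37.35% and 46.0% of the WT mean in input, IP and bulk. Reads of *Dlgap3* therefore remained in every library labelled KO, and a count per gene does not say which exons they cover.

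The log2 fold change of *Dlgap3* was -1.19 in the input (SE 0.10, adjusted p = 0.0070), -1.40 in the IP (SE 0.17, adjusted p = 0.028) and -1.14 in bulk (SE 0.14, unadjusted p = 2.0e-05, adjusted p = 0.32). In the input it was the only gene called of 15591, or 0.00641%, and 869 had an unadjusted p under 0.05. In the IP 0.0197% of genes were called lower and 0.00658% higher, and in bulk none of 16020 by edgeR, with 792 at an unadjusted p under 0.05 and 18 by DESeq2. The input call was lost without KO input replicate 2, 3 or 4, where the adjusted p was 0.053 to 0.064, and the IP call was lost in 7 of 8 such fits, where it reached 0.169. Bulk passed without WT bulk replicate 4, at -1.28 (adjusted p = 0.00105). With the cortical markers as a covariate *Dlgap3* was at -1.08 in the input (adjusted p = 7.87e-04), -1.37 in the IP (adjusted p = 0.20) and -1.12 in bulk (adjusted p = 0.13).

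None of the other 8 genes passed in any of the 3 comparisons. *Shank1* was at 0.54 in the input (SE 0.30, unadjusted p = 0.11) and 0.65 in the IP (unadjusted p = 0.069), with KO values of 105 to 219 CPM against 53.9 to 136 CPM in WT inputs. *Dlgap1* was at 0.31 in the input (unadjusted p = 0.18), with 373 to 412 CPM in KO mice against 176, 381, 361 and 369 CPM in WT. With the cortical covariate the input values became 0.29 for *Shank1* and 0.04 for *Dlgap1*, and the IP value of *Shank1* 0.31. *Shank2* was at 0.33 in the IP (unadjusted p = 0.040, adjusted p = 1.00).

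*Homer1* stood apart in bulk, at 484, 496, 654 and 597 CPM in WT and 415, 439, 406 and 467 CPM in KO mice. Its groups did not overlap, its KO mean was 77.4% of WT, and the log2 fold change was -0.39 (SE 0.10, unadjusted p = 0.0041, adjusted p = 0.98). In the inputs and IPs of the SAPAP3 cohort *Homer1* overlapped between genotypes. The bulk groups were not matched for sex. *Xist* was at 197 CPM in WT bulk replicate 3, which had the highest *Homer1*, and at most 2.36 CPM in the other bulk libraries. WT input replicate 4 and KO input replicate 1 also expressed *Xist*, at 184 and 246 CPM. Over the main and alternative fits, with *Xist* as a covariate among them, *Homer1* in bulk was at -0.40 to -0.25. By a 2-sided exact permutation test of each gene in each preparation, 4 of 27 tests reached an unadjusted p under 0.05, all at 0.0286, the smallest that 4 against 4 can give: *Dlgap3* in input, IP and bulk and *Homer1* in bulk. After adjustment over the 27 tests the lowest p was 0.193. As no test can go below 0.0286, none can pass 0.05 after adjustment unless many of the 27 reach that floor. The adjusted value therefore cannot decide for single genes, *Dlgap3* among them. Genes whose groups did not overlap downwards made up 2.62% of all genes in the input, 0.882% in the IP and 0.743% in bulk, beside 1, 1 and 2 of the 9. Upwards they made up 1.52%, 0.559% and 2.59%, beside none of the 9. The labels give 1 animal identifier to both a WT and a KO bulk sample.

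**Figure D5:**
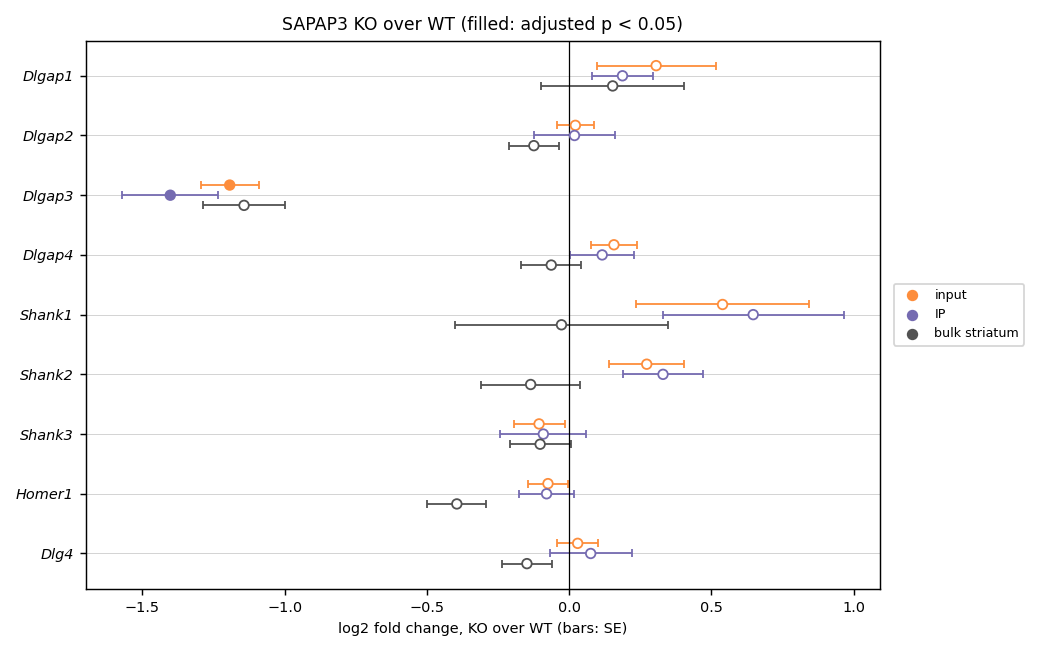
Log2 fold change of KO over WT for the 9 genes in input, IP and bulk striatum, with bars of 1 SE and filled points for an adjusted p under 0.05. *Dlgap3* lies at -1.19, -1.40 and -1.14 and the other 8 genes lie between -0.39 and 0.65 with open points.

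Relatives of these genes and other proteins of the postsynaptic density were counted from lists. Of 7 other members of the same families, 3 were called higher and 1 lower in the Control IP, beside 13.4% and 13.5% of all genes. *Homer3* was at 1.74 and *Dlg5* at 1.77 on the log2 scale, and *Dlgap5*, a mitotic gene in spite of its name, at -1.92. In the SAPAP3 cohort *Homer3* was at 1.70 in WT and 1.85 in KO mice, and the difference between the hSyn1 and Control cohorts was -2.26 for *Homer3* and -2.15 for *Dlg5*. The same difference was 0.54 for *Dlg3* and 0.46 for *Dlg2*, so that the relatives ran in both directions, with 3 of 7 higher and 3 lower. Of 22 other postsynaptic density proteins, 0 were called higher and 2 lower in the Control IP, *Begain* at -1.17 and *Ppp1r9b* at -1.03, with a list median of -0.40 beside -0.025 over all genes. Between the hSyn1 and Control cohorts 17 of the 22 were higher and 3 lower, beside 35.8% and 34.3% of all genes, with a median difference of 0.65 beside 0.016 over all genes. The highest were *Baiap2*, which encodes the actin regulator IRSp53, at 1.39 and the dynein light chain gene *Dynll1* at 1.31, and the lowest were *Tanc1* at -0.86 and the delta-catenin gene *Ctnnd2* at -0.62.

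A list of 5 mRNAs known to lie in dendrites shared *Camk2a* with the list of postsynaptic density proteins. In the Control IP 0 of the 5 were called higher and 2 lower, beside 13.4% and 13.5% of all genes. The 2 were *Ddn* at -2.01 and *Nrgn* at -1.28. Both are transcripts of neuronal dendrites and were higher in the difference between hSyn1 and Control, by 1.79 and 1.92. None of the 3 lists had a gene called between KO and WT.

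The genes whose pattern was most like each scaffold gene were found by the correlation of mean log2 CPM over the 7 groups without the knockout, among 11758 genes. The points share cohorts, which also differ in cortical markers, so the values are a description. *Dlg4* was most like *Cdk5r2* (r = 0.9985), *Dlgap2* most like *Bcl11a* (r = 0.9972), *Dlgap1* most like *Bmp3* (r = 0.9938) and *Dlgap3* most like *Ubox5* (r = 0.9919). Next came *1700030J22Rik* and *Mark2* for *Dlg4*, *Slitrk3* and *Fam160a2* for *Dlgap2*, *Scube1* and *Gng2* for *Dlgap1*, and *March9* and *Hs6st3* for *Dlgap3*. The 3 closest to *Dlgap4* were *Celf5*, *Dnal1* and *Mark2*, and the 3 closest to *Homer1* were *Rab27b*, *Ttc19* and *Tmem68*. For the SHANK genes they were *Mkx*, *St3gal1* and *Sestd1* (*Shank1*), *Entpd7*, *Csnk2a2* and *Sorbs2* (*Shank2*), and *Scyl3*, *1700052K11Rik* and *Nfatc2* (*Shank3*). Among the 9 genes, *Dlgap4* and *Dlg4* were closest in pattern (r = 0.982) and *Dlgap1* and *Shank1* followed each other (r = 0.933). *Dlgap1* and *Dlgap3* did not follow each other (r = -0.018).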

How the data were processed

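RNA of 40 libraries was sequenced. The authors deposited 1 table of raw read counts per gene symbol, and the submitters' notes name STAR, HTSeq and mm10. The labels name a stranded kit, and the study's methods name another kit, which was not resolved. The members and gene lists were chosen with earlier results of these data known. CPM used library totals, and FPKM used exon lengths of GRCm38.p6, merged over transcripts or from curated transcripts. Counts were tested with edgeR 4.0.16 (R 4.3.3, limma 3.58.1) by its quasi-likelihood test after filterByExpr and TMM scaling, with Benjamini-Hochberg adjustment over all genes tested. IP was compared with input, KO with WT, and the ratios of cohorts by interaction terms. IP and input calls also needed a log2 fold change beyond 1. The genes named were the 9 members, up to 2 called genes at each end of a list, and the 3 genes most like each member; *Slc17a7*, *Ppp1r1b* and *Drd1a* were added after values were seen. The main fits of IP against input and of ratios between cohorts held no term for the pair, so their p-values ignore it. Alternatives were DESeq2 1.42.0, limma-voom, other scalings and filters, left-out libraries, covariates and pairing by number. IP and input libraries of the same number deviated together: the correlations of their deviations were 0.248 to 0.792 and each library was closest to its own number in all 4 cohorts. On simulated counts with 200 genes changed by 1 (log2), edgeR recovered 89.9% in the Control comparison and 80.2% between KO and WT inputs. The simulation used the spread estimated by edgeR itself. The labels give each replicate of a group its own animal identifier, and IP and input of 1 number share it except in the hSyn1 cohort, where they carry different identifiers and share only a title number. The depth of 23438112 to 84109800 reads left no member under 731 reads in any library.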

Additional observations from a re-analysis of the deposited data

Results flagged for a closer look

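Within groups of 4, 9 of 100 checks found a library whose gap to its neighbours was large for the group's range, where chance gives about 1 in 20. WT input replicate 1 had *Dlgap1* at 176.3 CPM against 361 to 380 CPM in the other 3, *Shank3* at 331.1 CPM against 267 to 271 CPM, and a cortical marker score of 2.993 (mean log2 CPM) against 5.47 to 5.79. In Control input replicate 3 *Homer1* was at 393.7 CPM against 330 to 333 CPM and *Dlgap2* at 88.81 CPM against 81.2 to 82.4 CPM. *Dlgap2* was at 82.11 CPM in KO bulk replicate 4 against 95.5 to 96.5 CPM, and *Dlgap3* at 331.6 CPM in hSyn1 input replicate 4 against 383 to 394 CPM. *Shank2* was at 43.82 CPM in WT IP replicate 3 against 32.7 to 33.6 CPM, and at 116.9 CPM in KO input replicate 2 against 92.3 to 94.6 CPM.

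The change from input to IP differed between the hSyn1 and Control cohorts for 8 of the 9 genes, beside 35.8% of all genes higher and 34.3% lower. The log2 difference of hSyn1 minus Control was -0.574 for *Dlgap1*, 0.424 for *Dlgap2*, 1.561 for *Dlgap3*, 0.519 for *Dlgap4*, -0.756 for *Shank1*, 0.707 for *Shank3*, 1.35 for *Homer1* and 1.426 for *Dlg4*, with adjusted p (edgeR) from 5.52e-12 to 0.0324. The call on *Shank1* was lost in 7 of 16 fits with 1 library left out. The difference of WT in the SAPAP3 cohort minus Control was -1.146 for *Dlgap1*, -0.412 for *Dlgap2*, -0.294 for *Dlgap4* and -1.639 for *Shank1*, with adjusted p from 0.00095 to 0.00736, beside 11.3% of all genes lower and 9.18% higher.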

How the results depend on the processing

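Of 697 log2 fold changes of the 9 genes recomputed with all libraries or with groups of libraries excluded, 658 kept their direction and their side of the threshold, as did 769 of 824 with 1 library left out. Members without 5 FPKM in at least 4 libraries had no value under that filter. The exact test was not run with 4 against 3 libraries, where its smallest p again leaves few genes no way to pass 0.05 after adjustment. Causes were not tested. Covariates and excluded libraries with low cortical markers, the exclusion of WT mouse 1 and the comparison of WT with Control were chosen after seeing the data.

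With the filter of 5 FPKM, fewer genes could be called: 1702 instead of 4157 (Control IP against input), 507 instead of 2635 (hSyn1), 1270 instead of 3590 (WT), 1423 instead of 3713 (KO), 2 instead of 4 (KO against WT, IP) and 7172 instead of 11469 (hSyn1 minus Control), and members lower were 5 instead of 8 in WT IP and 2 instead of 4 in WT minus Control. Without the fold limit, members higher in the Control IP were 1 instead of 2 by library totals, by upper quartile scaling and with that filter. In the hSyn1 cohort members higher were 1 instead of 3 by library totals and with the filter, and members lower 2 instead of 1 by library totals. With the replicate block they were 6 higher and 3 lower, and the block gave 4980 instead of 3280 genes in WT minus Control. DESeq2 called 8 instead of 1 gene between KO and WT inputs, 8 instead of 4 in the IP, 18 instead of 0 in bulk, where *Dlgap3* was 1 member called lower, and 1 instead of 0 in KO minus WT. On counts simulated for KO against WT inputs, 18.8% of DESeq2 calls were false, beside 3.7% of edgeR calls. These counts were drawn with the spread that edgeR itself estimates and without differences shared by a whole library. They therefore cannot say which of the DESeq2 calls on the real data are false. The cortical covariate left 2 genes and 0 members in the IP, and bulk without WT replicates 2 and 3 gave 5 genes.

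Changes of sign were all among values that had not passed the test. By library totals they came to -0.047 (*Dlgap1*), -0.034 (*Dlgap2*) and -0.118 (*Dlgap4*) in the hSyn1 cohort, -0.0074 (*Dlgap2*) and -0.00025 (*Dlg4*) in KO against WT inputs, -3.1e-05 (*Dlgap2*) in the IP and 0.0011 (*Shank1*) in bulk. By upper quartile scaling they were -0.0057 (*Dlgap4*, hSyn1), -0.0073 (*Dlgap2*) and -0.00017 (*Dlg4*, both inputs), and with the FPKM filter -0.017 (*Dlgap1*) and -0.09 (*Dlgap4*) in hSyn1. With limma-voom they were -0.01 (*Dlgap2*, IP), 0.122 (*Shank1*, bulk) and -0.069 (*Shank1*, KO minus WT), which the replicate block put at -0.052. With *Xist* as covariate they were -0.068 (*Dlgap2*) and -0.04 (*Dlg4*) in the IP and -0.048 (*Dlgap1*) and 0.044 (*Shank3*) in bulk. The cortical covariate gave -0.056 (*Dlgap2*, IP), and bulk without WT replicates 2 and 3 gave -0.252 (*Dlgap1*) and 0.067 (*Shank3*).

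With 1 library left out, members without the fold limit in hSyn1 were 3 to 5 higher and 1 to 3 lower, and members lower in hSyn1 minus Control 1 to 2. KO against WT gave 0 to 1 member and 0 to 1 gene in the input, 0 to 1 member and 0 to 3 genes in the IP, and 0 to 1 of each in bulk. Signs changed within -0.025 to 0.07 (*Dlg4*) and -0.04 to 0.057 (*Dlgap2*) in the input. In the IP they changed within -0.071 to 0.187 (*Dlg4*), -0.107 to 0.139 (*Dlgap2*) and -0.23 to 0.0072 (*Shank3*). In bulk they changed within -0.011 to 0.339 (*Dlgap1*), -0.131 to 0.026 (*Dlgap4*), -0.248 to 0.312 (*Shank1*), -0.254 to 0.026 (*Shank2*) and -0.154 to 0.02 (*Shank3*). *Shank1* in KO minus WT ran from -0.154 to 0.348, and *Shank3* in WT minus Control from -0.0026 to 0.156.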
